A study of Homo sapiens with 2 samples.

Results

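The clustered histone genes encode the linker histone H1 and the core histones H2A, H2B, H3 and H4, and lie in gene clusters on chromosomes 6 and 1. They were chosen by name: a probe of the authors' table of detected probes was a member if its gene symbol began with HIST1H, HIST2H, HIST3H or HIST4H, or with the newer H1, H2AC, H2BC, H3C and H4C names followed by a number. This gave 62 of the table's 20291 probes, which stand for 53 of its 14894 named genes (2 genes of H1, 12 of H2A, 14 of H2B, 13 of H3 and 12 of H4). RNA came from cells labelled HCT116, a human colorectal carcinoma line, harvested 48 h after Lipofectamine 2000 had carried in either a miR-204-5p mimic or a control RNA. The mimic is a synthetic stand-in for that microRNA, and the control's sequence is not among the labels. Each condition had 1 single-colour Agilent array and no repeat, so no difference below was tested or has a replicate error, and the number of arrays limits the precision of all of them.

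Core histones wrap DNA into nucleosomes, and H1 binds the linker DNA between them. Cells make most of these proteins in S phase from many near-identical gene copies, which cyclin E and CDK2 switch on through the factor NPAT. The mRNAs of these genes usually end in a conserved stem-loop bound by SLBP in place of a poly(A) tail. The labelling kit primes from poly(A) tails, and which form of histone RNA each probe read was not tested. Copies of a histone type are also alike in sequence. Probe sequences were not used here, so whether a probe reads 1 copy alone was not checked and each gene's value is uncertain in that respect.

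Intensities are printed after scaling both arrays to a common 75th percentile, and differences are log2 mimic minus log2 control of these intensities. A gene was counted as higher or lower from 1.5-fold on. Over all 14894 table genes, 24.7% were lower and 23.5% higher by that rule, with a median difference of -0.05. Between the probes of the 2514 table genes with 2 probes the median gap was 0.48, which serves below as a guide to how far a single probe can be read.

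The labelled cell type was checked against markers, and the arrays differed in them. Of the 8 measured epithelial markers, 7 were higher on the mimic array, with a summed intensity of 242692 against 44186 over all 8. The other, KRT20, read 90.9 against 127 and lay within 1.5-fold. EPCAM read 65569 after the mimic and 608 in the control, and E-cadherin (CDH1) 11324 against 36.6. Outside the table, the intestinal factor CDX2 read 1255 against 5.14 and ELF3 2192 against 4.30, so the library labelled as the HCT116 control had both at the level of negative-control spots. ESRP1, also outside the table, read 1335 against 51.4, while VIL1 read 5.92 against 5.39, near that level on both arrays. Of 7 mesenchymal markers 6 were lower on the mimic array and 1 was higher, with a summed intensity of 3686 against 187163, and 4 of the 7 had recomputed values, as explained below. Vimentin (VIM), 1 of these 4, read 1279 against 163211. Of 4 blood cell markers 1 was higher and 1 lower, and 2 of 2 endothelial markers in the table lay within 1.5-fold. PECAM1, an endothelial marker with 3 probes outside the table, read 4.52 against 222, 10.9 against 114 and 5.99 against 5.42. With 1 library per group the difference in markers and the treatment cannot be told apart, and the part of the markers, or of the share of cells in S phase, in the histone values was not tested.

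The sequence of the transfected microRNA and the start regions of 6 histone genes are shown first, because the results divide the genes by type and promoter elements differ between types. The mature miR-204-5p of RefSeq (chr9:70810031-70810052, minus strand, GRCh38.p14) has its seed, bases 2 to 8, in capitals.
miR-204-5p: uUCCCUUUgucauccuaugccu
The 250 bases before the start of each gene come from RefSeq on GRCh38.p14 and are written 5′ to 3′ on the gene's strand. Capitals mark 4 motifs: AAACACA, the H1 box of linker histone promoters; CCAAT, the box bound by NF-Y; ATTTGCAT, the octamer bound by POU2F1 (Oct-1) that is typical of H2B genes; and TATAAA, the core of the TATA box. The TATA box was searched in the direction of the gene only and the others on both strands.
H1-4 and H1-2 (chr6:26156079-26156328, plus strand, and chr6:26056471-26056720, minus strand) had the lowest differences of the 53 genes, each gene taken as the mean of its probes.
H1-4: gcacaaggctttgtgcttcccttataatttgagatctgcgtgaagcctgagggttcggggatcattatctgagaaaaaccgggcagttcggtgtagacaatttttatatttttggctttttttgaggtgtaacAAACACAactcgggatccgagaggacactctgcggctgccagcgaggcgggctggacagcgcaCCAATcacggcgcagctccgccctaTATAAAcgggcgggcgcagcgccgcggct
H1-2: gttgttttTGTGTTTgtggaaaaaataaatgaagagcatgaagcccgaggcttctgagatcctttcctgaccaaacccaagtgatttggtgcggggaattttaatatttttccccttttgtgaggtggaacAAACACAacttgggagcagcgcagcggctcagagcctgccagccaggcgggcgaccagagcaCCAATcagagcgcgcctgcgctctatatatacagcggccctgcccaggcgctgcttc
H2BC14 (chr6:27814772-27815021, plus strand) shares its start region with H2AC14 on the opposite strand, and this was the single such pair with both genes lower, no recomputed value (explained below) and an octamer in both regions.
H2BC14: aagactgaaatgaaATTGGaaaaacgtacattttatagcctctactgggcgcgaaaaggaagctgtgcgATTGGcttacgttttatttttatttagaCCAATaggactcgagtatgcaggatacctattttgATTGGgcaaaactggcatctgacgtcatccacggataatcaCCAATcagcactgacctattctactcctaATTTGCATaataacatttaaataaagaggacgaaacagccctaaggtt
H3C8 (chr6:26271414-26271663, minus strand) was the H3 gene furthest above the control, and H3C1 (chr6:26020201-26020450, plus strand) was lower.
H3C8: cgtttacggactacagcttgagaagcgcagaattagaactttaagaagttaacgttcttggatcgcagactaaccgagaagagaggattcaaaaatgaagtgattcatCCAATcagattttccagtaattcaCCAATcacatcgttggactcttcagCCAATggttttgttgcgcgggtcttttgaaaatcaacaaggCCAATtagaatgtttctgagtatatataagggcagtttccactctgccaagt
H3C1: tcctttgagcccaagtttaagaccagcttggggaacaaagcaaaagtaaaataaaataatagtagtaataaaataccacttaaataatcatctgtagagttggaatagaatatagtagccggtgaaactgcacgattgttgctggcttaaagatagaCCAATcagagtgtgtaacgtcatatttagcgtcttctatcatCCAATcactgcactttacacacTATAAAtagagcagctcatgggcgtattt
H4C12 (chr6:27831561-27831810, minus strand) was lower and stands for the H4 genes, most of which held no CCAAT box.
H4C12: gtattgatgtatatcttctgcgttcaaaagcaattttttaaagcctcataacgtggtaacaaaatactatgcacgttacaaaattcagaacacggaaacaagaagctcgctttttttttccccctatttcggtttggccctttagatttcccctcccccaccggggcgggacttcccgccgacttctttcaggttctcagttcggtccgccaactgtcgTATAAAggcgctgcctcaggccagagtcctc
A motif is a match of letters and not a shown binding site. Start regions of 300 bases, 250 before to 50 after the gene start, were found for 48 of the 53 genes and compared with all 27305 promoters of that table. CCAAT stood in 11 of 11 H2A, 14 of 14 H2B and 11 of 11 H3 regions but in 3 of 10 H4 regions, against 35.7% of all promoters. The octamer stood in 10 of 14 H2B and 8 of 11 H2A regions, 1 of 11 of H3 and 0 of 10 of H4, against 1.80% of all. The H1 box stood in both H1 regions, 1 of 11 of H2A, 1 of 11 of H3, 0 of 14 of H2B and 0 of 10 of H4, against 5.76% of all. TATAAA stood in 28 of the 48, against 7.71%.

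Most clustered histone genes had less signal after the mimic. Of the 53 genes 38 (71.7%) were at least 1.5-fold lower, 7 (13.2%) were at least 1.5-fold higher and 8 lay between, with a median difference of -1.03 and a middle 50% from -1.48 to -0.47. Counted over probes, 45 of 62 were lower and 7 higher, where 24.7% and 23.0% of all table probes passed. At 2-fold, 31 genes were lower and 4 higher, where 14.3% and 14.0% of all table genes passed. The types differed: H1, H2A and H2B genes lay almost wholly on the lower side, H4 genes were spread from lower to near equal, and H3 genes split into a lower and a higher set. How the deposited mimic values were made bears on this. For 15 of the 62 probes, which stand for 14 of the 53 genes, the raw mimic signal equalled the raw control signal times the deposited fold of the authors' deposited table (relative tolerance 1e-06), so these values, called recomputed here, are not an independent reading of the mimic array. The mimic values of the remaining 47 probes were 1.2 times a number of at most 7 significant digits, as were those of 93.3% of all table probes. In the authors' deposited table the 15 probes are those with a log2 ratio below -1, and the lowest of the other 47 stands at -0.98. A count without them is therefore trimmed on the lower side by its own rule: 28 of the remaining 44 genes were lower and 7 higher, where 19.0% and 25.2% of all table genes trimmed in the same way passed. In these bulk RNA samples, fewer cells that express a gene and less RNA of it in each cell cannot be told apart.

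**Figure D1:**
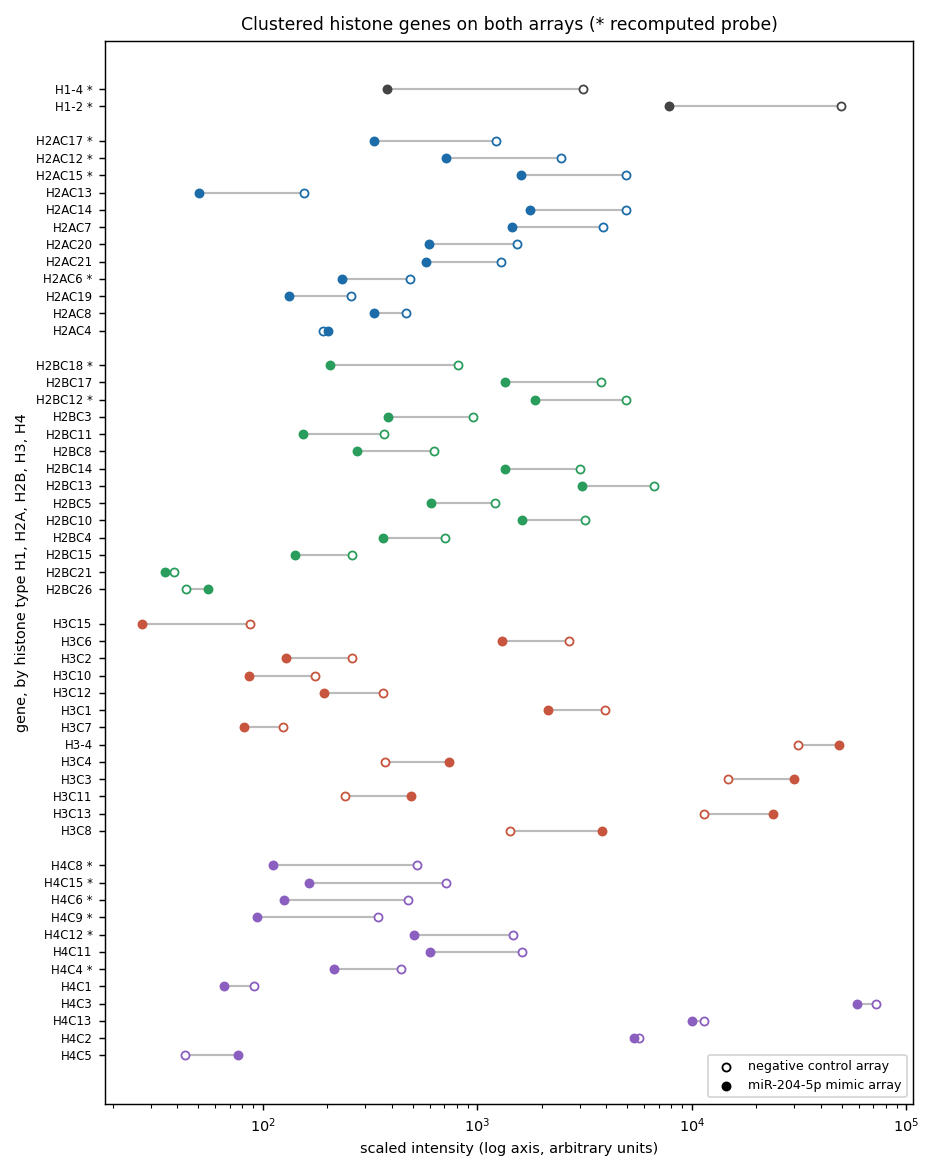
Scaled intensity of each of the 53 clustered histone genes (mean of log2 over its probes) on the negative control array (open circles) and the miR-204-5p mimic array (filled circles), on a log axis, grouped by histone type, with an asterisk at genes with a recomputed probe. The filled circle lies to the left of the open one for 44 genes and to the right for 9, of which 6 are H3 genes.

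The H1 genes showed the lowest median of the 5 types. H1-4 (HIST1H1E in the file), with its probe at bases 26156928 to 26156987 of chromosome 6 as the file numbers them, had an intensity of 379 after the mimic and 3099 in the control, 8.17-fold lower. H1-2 (HIST1H1C) read 7843 against 49793, 6.35-fold lower. Both encode main somatic linker histones, and both values came from recomputed probes: the authors' deposited table gives ratios that are 5.35-fold lower for H1-4 and 4.16-fold lower for H1-2, and the scaling used here adds the rest. Another H1 gene had a bright probe outside the table. H1-3 read 288 after the mimic and 2236 in the control, 7.75-fold lower, and its mimic value had the same form of 1.2 times a rounded number. The 3 other H1 probes outside the table, of H1-1, H1-5 and the testis gene H1-6, read between 4.28 and 4.89 on both arrays, at the level of the negative-control spots, and show no difference that could be read.

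H2A genes were lower in 10 of 12 cases and higher in 0, where 24.7% and 23.5% of all table genes passed. Their median was -1.40, with a range from -1.90 (H2AC17) to 0.08 (H2AC4). The lowest was H2AC17 (HIST1H2AM), with 1342 against 4507 at 1 probe and 80.6 against 334 at the other, both recomputed. H2AC4 (HIST1H2AB), the highest, read 201 against 191, the only H2A gene with a mean above the control. The genes between them were mostly of 1 size: H2AC12, H2AC15, H2AC13, H2AC14, H2AC7, H2AC20 and H2AC21 were between 3.43-fold (H2AC12) and 2.22-fold (H2AC21) lower. H2AC19 was 1.93-fold lower, and H2AC8, at 331 against 465, stayed within 1.5-fold. The H2A genes of the cluster on chromosome 1 (H2AC19, H2AC20 and H2AC21, HIST2 names in the file) were all lower, as were 7 of the 9 on chromosome 6. Recomputed probes stood behind 4 of the 12 H2A genes.

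H2AC6 (HIST1H2AC) had 3 probes, and they did not give 1 answer. The probe furthest from the others, within a span of 14479 bases in the file's coordinates, read 1505 after the mimic and 4896 in the control and was recomputed. Of the remaining probes 1 read 148 against 332 and 1 read 57.6 against 69.9, so the gene's mean of -1.05 covers probes from -1.70 to -0.28.

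H2B genes had the narrowest middle 50% of the core types, though not the narrowest range. Of 14 genes 12 were lower and 0 higher, where 24.7% and 23.5% of all table genes passed. Their median was -1.14, with a middle 50% from -1.30 to -0.97, and 2 of the 14 had a recomputed probe. H2BC18 (HIST2H2BF) had the lowest mean at -1.98, but its probes stood far apart: 63.9 against 654 at a recomputed probe, and 663 against 1003 at the other. The next were H2BC17 (HIST1H2BO), at 1352 against 3755, and H2BC12 (HIST1H2BK). The pair of H2BC12 probes lay within 8306 bases and read 4363 against 14248, recomputed, and 796 against 1699, so both were lower by more than 1.5-fold. H2BC3, H2BC11, H2BC8, H2BC14, H2BC13, H2BC5, H2BC10, H2BC4 and H2BC15 were single-probe genes with no recomputed value, between 2.49-fold (H2BC3) and 1.85-fold (H2BC15) lower. The exceptions were dim. H2BC21 (HIST2H2BE) read 35.1 against 38.7 and H2BC26 (HIST3H2BB), the highest H2B gene, 55.4 against 43.9, and both raw control signals were under 10 times the negative-control median of 3.60. Outside the table H2BC9 was bright and lower too, with 1363 against 4021, 2.95-fold.

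**Figure D2:**
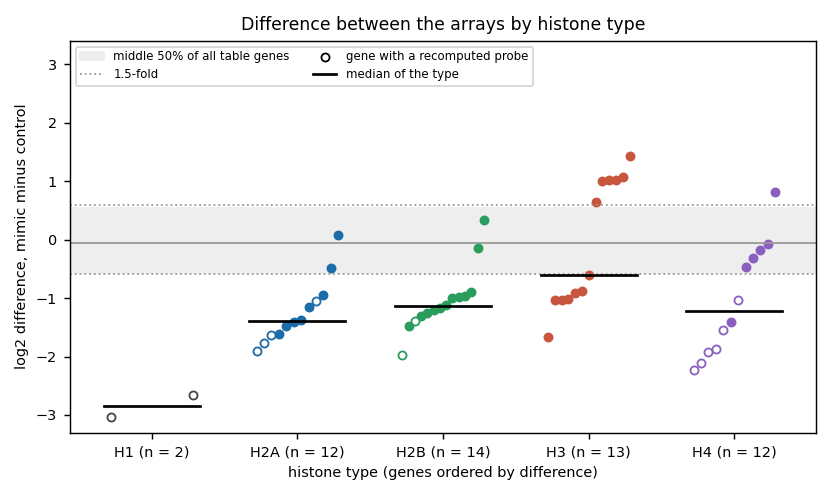
Log2 difference (mimic minus control) of each gene by histone type, with open circles for genes with a recomputed probe, a bar at the median of the type, dotted lines at 1.5-fold and a grey band for the middle 50% of all table genes. The medians are -2.85, -1.40, -1.14, -0.61 and -1.22 for H1, H2A, H2B, H3 and H4, and no H3 gene lies between -0.61 and 0.64.

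H3 genes, of which 0 had a recomputed probe, split in 2 sets with no gene between -0.61 and 0.64. Of 13 genes 7 were lower and 6 higher by at least 1.5-fold, where 24.7% and 23.5% of all table genes passed. The median of -0.61 is the value of H3C7, the lower gene nearest to the threshold. H3C7 lost its call under all 6 other scalings, so that 6 genes were lower under 5 of them and 1 under the deposited values as they stand. H3C8 (HIST1H3G) was the highest, at 3811 after the mimic and 1417 in the control, 2.69-fold. It was followed by H3C13 (HIST2H3D, 23968 against 11386), H3C11 (490 against 241), H3C3 (29873 against 14718) and H3C4 (738 against 370), which were all between 1.99-fold and 2.11-fold higher. H3-4 (HIST3H3), known as a testis-specific H3, read 48567 against 31258, 1.55-fold higher. A probe named for a testis gene that is bright on both arrays is one place where the reading of other H3 copies was not checked.

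The lower H3 set held H3C15 (HIST2H3A), at 27.4 against 87.0, with a raw mimic signal under 10 times the negative-control median of 5.59. H3C6, H3C2, H3C10, H3C12 and H3C1 were between 2.04-fold (H3C6) and 1.84-fold (H3C1) lower, and H3C7 was 1.52-fold lower. The H3C10 probes read 72.2 against 166 and 104 against 184, so both were lower. Control intensities of the lower set ran from 87.0 to 3927 and those of the higher set from 241 to 31258, and the part of probe brightness in the split was not tested. Each set held genes of chromosome 6 and chromosome 1. The start regions found for 5 genes of the higher set and 6 of the lower set all held CCAAT, and TATAAA stood in 2 of the 5 and 5 of the 6. Only these exact letters were counted, so a near match such as tatataag in the H3C8 region was not. With 5 and 6 genes a difference in TATA boxes between the sets was not tested.

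H4 genes encode the same core histone from many copies, and here they ranged from -2.23 to 0.81. Of 12 genes 7 were lower, 1 was higher and 4 lay within 1.5-fold, with a median of -1.22. Of all table genes 24.7% were lower and 23.5% higher. H4C8 (HIST1H4H) was the lowest, at 112 after the mimic and 525 in the control, 4.70-fold lower and recomputed. H4C15, H4C6 and H4C9 were 4.32-fold, 3.78-fold and 3.66-fold lower, also from recomputed probes, and H4C11 was 2.67-fold lower from a probe that was not. H4C3, H4C13 and H4C2 formed the near-equal group, with 58608 against 72508, 10058 against 11346 and 5356 against 5666. H4C5 (HIST1H4E) was the highest, at 76.4 against 43.6, but its raw control signal was under 10 times the negative-control median. Of the 7 lower H4 genes 6 had a recomputed probe. Without recomputed probes, a rule that trims the lower side, 2 of 8 H4 genes were lower and 1 was higher. Of all table genes trimmed in the same way 19.0% were lower and 25.2% higher, so the lower H4 count rests mainly on recomputed values.

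The 3 H4 genes with more than 1 probe show how far single probes went apart. H4C12 (HIST1H4K) read 370 against 1208, recomputed, and 689 against 1791, so both were lower. H4C4 (HIST1H4D) read 111 against 340, recomputed, and 414 against 565, which is within 1.5-fold. H4C1 (HIST1H4A) read 37.0 against 64.8 at a probe near the floor and 118 against 129 at the other. Over the 8 histone genes with more than 1 probe the gap between the lowest and the highest probe had a median of 0.64 and ran from 0.30 (H2AC17) to 2.76 (H2BC18), and none of the 8 had probes on both sides of 1.5-fold in opposite directions.

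The genes were chosen by symbols that name their cluster, but the position within a cluster was not used. On chromosome 6, in the file's coordinates, of unstated build, 25 genes lay in a first group from 26020881 to 26285556 and 18 in a second group from 27100318 to 27861647. In the first group 16 of 25 were lower and 4 higher (median -0.98). In the second group 16 of 18 were lower and 1 higher (median -1.41). Over all table genes 24.7% were lower and 23.5% higher. The same order held within H2A (medians of -0.77 over 4 genes and -1.63 over 5) and H4 (-0.47 over 7 and -1.48 over 4), and within H3 (-0.61 over 7 and -0.91 over 3). H2B medians had this order too (-1.004 over 5 and -1.21 over 6), with 5 of 5 and 6 of 6 genes lower. The H2B and H3 gaps were smaller than 0.48, the median gap between probes of 1 gene, and the H2A and H4 gaps were larger. That guide does not measure the spread between medians of a few different genes, so no effect of position can be read from it. Recomputed probes stood behind 1 of 4 H2A genes in the first group and 3 of 5 in the second. For H4 genes these counts were 3 of 7 and 2 of 4. No test of the difference can be made with 1 array each. Of the 8 genes of the cluster named HIST2 on chromosome 1, 6 were lower and 1 was higher, and of the 2 genes named HIST3, 0 were lower and 1 was higher. A count over 2 genes cannot be read against the shares of all table genes.

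**Figure D3:**
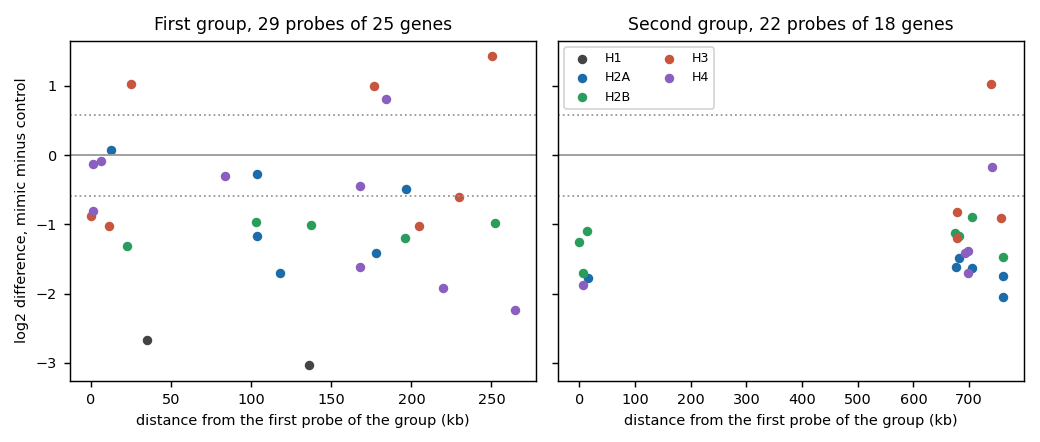
Log2 difference of each probe on chromosome 6 against its distance in kb from the first probe of its group, for the first group (29 probes of 25 genes) and the second group (22 probes of 18 genes), coloured by histone type, with dotted lines at 1.5-fold. In the second group 1 H3 probe lies above 0, while the first group holds 3 H3 probes, 1 H4 probe and 1 H2A probe above it.

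Many H2A and H2B genes lie side by side on opposite strands and are read outward from a shared start region. In the files 8 such pairs, with probes within 2000 bases of each other, could be set side by side, a rule chosen after the values were known. In 6 of the 8 pairs both genes were lower. H2AC17 with H2BC17 stood at -1.90 and -1.47, H2AC12 with H2BC12 at -1.78 and -1.40, and H2AC14 with H2BC14 at -1.48 and -1.17. The median of all H2A genes, -1.40, was below that of all H2B genes, -1.14. Likewise the H2A gene was the lower of the pair in 7 of 8. Its median size over these 7 was 0.43, which is within the usual gap between probes of 1 gene. H2AC8 and H2BC8 went the other way, at -0.49 and -1.20. Start regions of both partners were found for 7 pairs, and in all 7 the 2 regions of 300 bases overlapped, by 255 (H2AC6 and H2BC4) to 293 bases (H2AC15 and H2BC15).

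**Figure D4:**
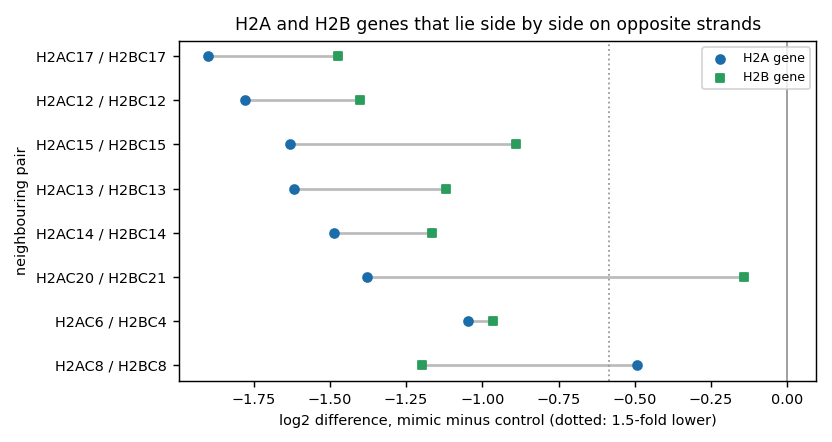
Log2 difference of the H2A gene (circles) and the H2B gene (squares) of 8 neighbouring pairs, with a dotted line at 1.5-fold lower. In 7 pairs the H2A gene lies to the left of its partner, and in 2 pairs (H2AC20 with H2BC21 and H2AC8 with H2BC8) 1 partner lies within 1.5-fold.

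Histone genes outside the clusters, most of which encode variants made from polyadenylated mRNA, were not shifted to 1 side. Of 11 measured genes 3 were higher and 2 lower (median 0.00), where 23.5% and 24.7% of all table genes passed. MACROH2A2, a large H2A variant of silent chromatin, read 3687 after the mimic and 59.6 in the control, 61.9-fold higher. H2AJ read 4034 against 14722 from a recomputed probe, 3.65-fold lower. H3-3B, a gene of the replacement histone H3.3, was 2.42-fold higher. H3-3A, the other H3.3 gene, was 1.54-fold lower as a mean of probes from -0.97 to -0.05. H2AX, H2AZ1, H2AZ2, MACROH2A1, CENPA and H1-10 lay within 1.5-fold.

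Genes that switch on histone transcription or form the histone mRNA 3′ end went both ways, with 9 of 28 measured genes higher, 8 lower and a median of 0.10. These shares of 32.1% and 28.6% lie near the 23.5% and 24.7% of all table genes. SLBP, which binds the stem-loop of histone mRNA, read 12070 against 7191, 1.68-fold higher. NPAT, the coactivator of histone genes, read 231 against 481, 2.08-fold lower. The largest differences were in CDK2 (829 against 83.6), CCNE1, which encodes cyclin E1 (7154 against 1424), the cleavage factor gene CPSF1 (1581 against 566) and the SLBP-binding translation factor gene MIF4GD (317 against 123), all higher on the mimic array. Factors of the usual poly(A) machinery bear on any reading through poly(A) tails. Of 14 such factors not counted above, 12 lay within 1.5-fold, with a median of 0.11. The exceptions among the 14 were WDR33, higher by 1.61-fold as a mean over 3 probes that ran from -1.27 to 1.73, and the poly(A) polymerase gene PAPOLG, lower by 1.77-fold. Other cleavage and polyadenylation factors were counted with the 28 genes above and were less level. Besides CPSF1, CPSF2 was 1.82-fold higher, CPSF3 1.72-fold lower and CSTF2 2.05-fold lower, while CSTF2T and PAPOLA lay within 1.5-fold.

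DNA replication genes, which like the clustered histone genes are read in S phase, leaned to the higher side. Of 30 measured genes 13 were higher and 2 lower, where 23.5% and 24.7% of all table genes passed. The median was 0.44, and 28 of the 30 differences were above 0, as were 7042 of all 14894 table genes. The licensing factor gene CDT1 read 17983 against 2903, the ribonucleotide reductase subunit gene RRM2 3087 against 550, the ligase gene LIG1 3611 against 916 and the polymerase epsilon gene POLE 275 against 75.3. Of 24 histone chaperone genes, 8 were higher and 3 lower, and their median was 0.10. CHAF1B, a subunit of the assembly factor CAF-1, was 3.47-fold higher and NAP1L4 was 5.10-fold higher. RBBP4 was 11.0-fold higher, with probes from 1.93 to 4.77, and SET 5.15-fold, with probes from 0.38 to 4.35. Only 1 of the 24 genes had a recomputed probe.

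**Figure D5:**
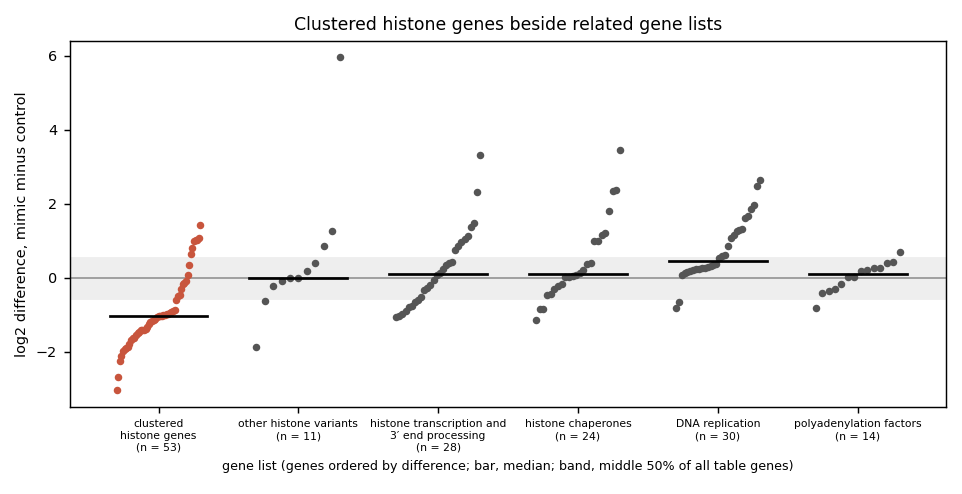
Log2 difference of each gene in the clustered histone set (53 genes) and in 5 related lists, ordered by difference, with a bar at the median and a grey band for the middle 50% of all table genes. The histone median is -1.03, while the medians of the lists lie between 0.00 (other histone variants) and 0.44 (DNA replication).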

How the data were processed

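Total RNA of both cultures was labelled with Cy3 by the Agilent Quick Amp kit, per the labels' protocols, and Agilent Feature Extraction 9.1 read the scans, as the submitters' processing notes say. The deposited scanner files hold 1 linear intensity per spot (44495 spots), not normalized between arrays. The authors' deposited table holds raw intensities, log2 normalized intensities and a linear ratio, the fold of mimic over control, for 20291 probes, per the file headers, which limit it to probes detected in 5 of 5 samples. The genome build and the authors' normalization method are not stated in the labels or headers used.

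Spots of 1 probe were averaged on the log2 scale, and the 75th percentile over 34127 non-control probes (1364 for the mimic and 894 for the control) was subtracted. The geometric mean of the 75th percentiles was then added back. Median negative-control intensities were 5.59 and 3.60. Genes were given the mean of their table probes, named through Entrez identifiers (17578 probes), accessions (23) or the file's symbol (695), with RefSeq symbols on GRCh38.p14, while 1995 stayed unnamed. All 62 histone probes were single spots named through Entrez identifiers. As a guide to technical spread, repeated spots of 1 probe gave a median SD of the log2 difference of 0.06 (788 table probes with at least 8 spots).

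The mimic signal of 93.3% of table probes was 1.2 times a number of at most 7 significant digits (relative tolerance 1e-12), and that of 15 of the 62 histone probes was not, the same 15 that were recomputed and carry the mark Down there.

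By accession the arrays held 77 probes of 66 clustered histone genes, of which 16 probes lay outside the table and were read as values only (4 of them at least 10 times the negative-control median on either array). With 1 array per group there was no test. Members were counted at 1.5-fold. Intensities on both arrays were given for the highest and lowest gene of each type, for H1 genes and for genes with more than 1 probe, and in each related list the 4 largest differences, SLBP and NPAT were named, except 1 gene that is not reported here. Further member values and H3-3A, WDR33, PAPOLG, CPSF2, CPSF3, CSTF2, CSTF2T and PAPOLA were named after their values were seen. The members, lists and tests were chosen with earlier results of these data known. Alternatives were quantile and cyclic loess normalization (limma 3.58.1 in R 4.3.3), the median as scaling point, the deposited log2 values as they stand and with their median taken off, a constant of 32, no recomputed probes, the brightest probe, a 2-fold threshold and probes in place of genes. The omission of dim members was added after the data were examined. The scaling was tested on simulated data with known folds. That simulation changed only a small part of the probes, in both directions, so it does not cover arrays that differ as widely as these.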

Additional observations from a re-analysis of the deposited data

Results flagged for a closer look

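H2AC25 (HIST3H2A), an H2A gene whose only probe on the arrays was found outside the authors' table, read 74.7 after the mimic and 18.9 in the control. It drew attention as a signal in data that the counts do not use, above its level on the control array, while 0 of the 12 H2A genes in the table were higher. Its raw mimic signal was 16.5 times and its raw control signal 4.25 times the negative-control median.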

How the results depend on the processing

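No paired analysis was possible because each group has 1 array. Under quantile and loess normalization, the median as scaling point, deposited values with the median of all probes taken off and a constant of 32, the number of lower histone genes was 37 in place of 38, and the medians of all members and of every type moved by less than 0.48. Of the 53 genes, 23 were at least 1.5-fold lower under the scaling used here and all 6 other scalings. The 6 higher H3 genes were higher under all 7. The count of 23 is also that under the deposited values as they stand, so that single setting fixed it. Counts of all table genes under that setting are given below. How many of all table genes kept their call under all 7 scalings was not counted, so neither number has a matching share. Without the 5 genes near the floor 37 of 48 were lower and 6 higher.

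With the deposited normalized values as they stand, where the median of all table genes is 0.58, 23 histone genes were lower, 11 were higher and the median was -0.46. The type medians were then -2.24 for H1, -0.79 for H2A, -0.50 for H2B, -0.67 for H4 and 0.013 for H3. The H3 median turned sign through H3C7, which read 0.013 there. All 5 lie below the median of all table genes. Of all 14894.0 table genes, 1629.0 were lower and 7442.0 higher under these values. The related lists then had 1 lower and 6 higher genes (histone variants), 0 and 16 (transcription and 3′ end processing), 0 and 15 (chaperones), 0 and 28 (DNA replication) and 0 and 8 (polyadenylation factors).

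Without recomputed probes, which removes by construction the lowest deposited ratios, the H4 median was -0.38 over 8 genes, and no H1 gene remained. At 2-fold, where 14.3% of all table genes were lower and 14.0% higher, 4 of the 53 histone genes were higher. The lower counts then became 1 of 11 for the variants, 2 of 28 for transcription and processing and 1 of 24 for chaperones. They were 0 of 30 for DNA replication and 0 of 14 for polyadenylation factors, of which 0 were higher. The lower histone variants numbered 1 under quantile and loess normalization, centred deposited values, the brightest probe and no recomputed probes. Under these settings 19.0% to 25.5% of all table genes were lower. The lower DNA replication genes numbered 1 under quantile and loess normalization and centred deposited values, where 22.5% to 23.4% of all table genes were lower. Counted as probes, 14 of 34 chaperone probes were higher, and of 18 polyadenylation factor probes 3 were lower and 2 higher. Of all table probes 24.7% were lower and 23.0% higher. The cause of these shifts was not tested. Of the 53 genes 7 changed sign under at least 1 other scaling: with the deposited values as they stand these were H2AC8, H2BC21, H3C7, H4C1, H4C3, H4C13 and H4C2, of which only H3C7 had been counted as lower. H2BC21 also did so under quantile and loess normalization, and H2BC21 and H4C2 with centred deposited values. The number of arrays and signal near background limit the dimmest genes.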
